A study of Danio rerio with 6 samples.

Results

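Genes with several RefSeq transcripts were followed here, and the question was whether the split of a gene's reads between its transcripts differed in hnrnpul1/1l mutants. A gene was a member if 2 or more rows of the transcript tables were paired with it and at least 2 of these rows reached 100 estimated counts summed over the 6 libraries. Of 14315 genes paired with a transcript, 353 had several rows and 269 were members, with 602 transcripts between them. There were 228 members with 2 rows, 23 with 3, 16 with 4 and 2 with more, up to 7 rows in 1 gene. Members were thus chosen by estimated counts summed over both genotypes. Just inside the minimum of 100, the second transcript summed to 106.4 counts in dbi, 107.9 in bmpr1bb and 112.2 in pou2f3, and just outside it to 94.1 in myb, 88.3 in si:ch211-14a17.11 and 79.2 in polr3gla.

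RNA was sequenced from 3 pools of 8 hnrnpul1/1l mutant embryos (DKO) and 3 pools of 8 wild-type embryos (WT) at 72 hpf, with the tail of each embryo removed for genotyping. The mutants were homozygous for CRISPR-induced mutations of hnrnpul1 and hnrnpul1l, the zebrafish pair of genes related to human HNRNPUL1. By the study's text, its mutants carried the Ca54 allele of hnrnpul1 and the Ca52 allele of hnrnpul1l except where it says otherwise, and the labels name no allele. The study describes the sequenced mutants as having hnrnpul1l mutant mothers, while their loss of hnrnpul1 was zygotic. It gives the controls both as siblings and as offspring of hnrnpul1l heterozygotes. Maternal and zygotic loss of hnrnpul1l therefore cannot be told apart in these pools.

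Most vertebrate genes make more than 1 mature RNA. Alternative promoters, exons and polyadenylation sites give transcripts that can differ in the encoded protein or only in the untranslated ends. Heterogeneous nuclear ribonucleoproteins coat nascent RNA and, with SR proteins, bias the spliceosome towards or away from particular splice sites. A transcript share is the percentage of a gene's estimated counts that the quantification gave to 1 transcript in 1 library. It does not depend on depth scaling. Longer transcripts draw more reads, so that a share of counts is not a share of molecules. The leading transcript of a gene was the one with the most counts when all libraries were averaged.

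The libraries held 40891309 to 62580215 counts in DKO and 52250779 to 61266049 counts in WT, of which members took between 4.54% and 5.12%. Levels are in CPM, that is counts brought to a common library size after TMM scaling. The mutated gene hnrnpul1 had 47.7, 45.7 and 22.1 CPM in DKO, against 127, 122 and 119 CPM in WT, and the genotypes did not overlap. It had a single row, and hnrnpul1l was not analysed here. Some tissue markers were not level between the genotypes. Markers of photoreceptors summed to 424 to 2447 CPM in DKO and 3856 to 5028 CPM in WT, with 5 of 6 markers lower and not overlapping. Skin markers summed to 12585 to 24883 CPM in DKO and 3744 to 9989 CPM in WT, with 3 of 4 higher and not overlapping. Blood markers summed to 827 to 1981 CPM in DKO and 580 to 933 CPM in WT, and these sums overlapped. Of the 4 blood markers, 2 were higher and not overlapping. Over all genes tested, levels did not overlap in 17.1%. No marker of muscle, neurons, lens or cartilage was separated, and of the exocrine pancreas 1 was lower and 1 higher. In whole-embryo pools, fewer cells of a type and less RNA per cell cannot be told apart, and the part of tissue make-up in the shares below was not tested.

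Shares could be computed in every library for 265 of the 269 members. In the remaining 4 (elk4, vegfaa, adcyap1r1a and sp100.4) at least 1 library had no counts for the gene. The leading share had a median of 80.0% over members in DKO and 81.8% in WT. It was higher in DKO in 132 members, lower in 130 and equal in 3, with a median difference of 0 percentage points. The median size of the difference was 6.92 points, and the SD between pools of 1 genotype had a median of 11.0 points in DKO and 10.3 points in WT. The difference was under 5 points in 116 members and over 20 points in 59.

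The split was unsteady from pool to pool. DKO 2, the pool with the fewest counts, had the highest or lowest leading share of all pools in 108 members, against 47 to 83 members in the other pools. Over the 6 libraries the leading share ranged over a median of 35.8 points, over more than 50 points in 102 members and over at least 90 points in 50. In 158 members some library gave the leading transcript less than 0.05% or more than 99.95% of the counts, and 7 members were all-or-none of this kind in all 6 libraries. The spread was wider in genes with few counts. In the 89 members with the fewest counts the SDs within 1 genotype, with those of DKO and WT listed together, had a median of 16.02 points. That median was 10.6 points in the next 87 members and 6.79 points in the 89 with the most counts. Leading shares of the genotypes did not overlap in 22 of 265 members (8.3%), of which 2 were among those with the fewest counts, 12 among the next and 8 among those with the most. In 18 members (6.79%) the gap was 1 point or more. The share was higher in DKO in 13 of the 22 and lower in 9. With 3 pools against 3, the exact two-sided permutation test cannot go below p = 0.1, which lack of overlap gives by itself in each of the 22 members. Without any genotype difference, a share of up to 0.1 of members would not overlap, and the 8.3% seen was no more than this.

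**Figure D1:**
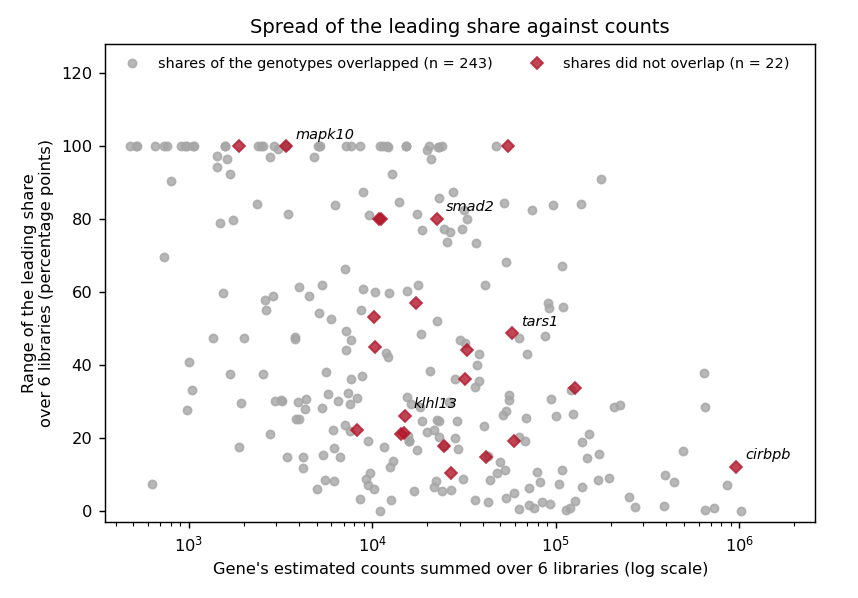
Range of the leading transcript's share over the 6 libraries (vertical axis, percentage points) against the gene's estimated counts summed over the libraries (horizontal axis, log scale), 1 point per member. Diamonds are the 22 members whose shares did not overlap between genotypes and circles the 243 others. Wide ranges up to 100 points occur at low and middling counts, and fam168a, with 54994 counts, ranged over 99.985 points.

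The leading shares did not group the libraries by genotype. Over the 265 members, the mean distance between 2 pools of the same genotype was 15.7 to 26.4 points, and between a DKO and a WT pool 16.4 to 28.1 points. DKO 3 and WT 3 were as close as any mixed pair (16.4 points), while DKO 2 and DKO 3 were 26.4 points apart. All-or-none shares were counted in 76, 90 and 52 members in DKO 1, 2 and 3, against 73, 85 and 43 members in WT 1, 2 and 3, so that the pools numbered 3 had the fewest in both genotypes. The genes camk2d1 and elavl1b, which were picked after their values were seen, show such a split. In camk2d1, which encodes a calcium/calmodulin-dependent kinase, the leading share was 100%, 100% and 40.0% in DKO and 100%, 100% and 52.0% in WT.

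**Figure D2:**
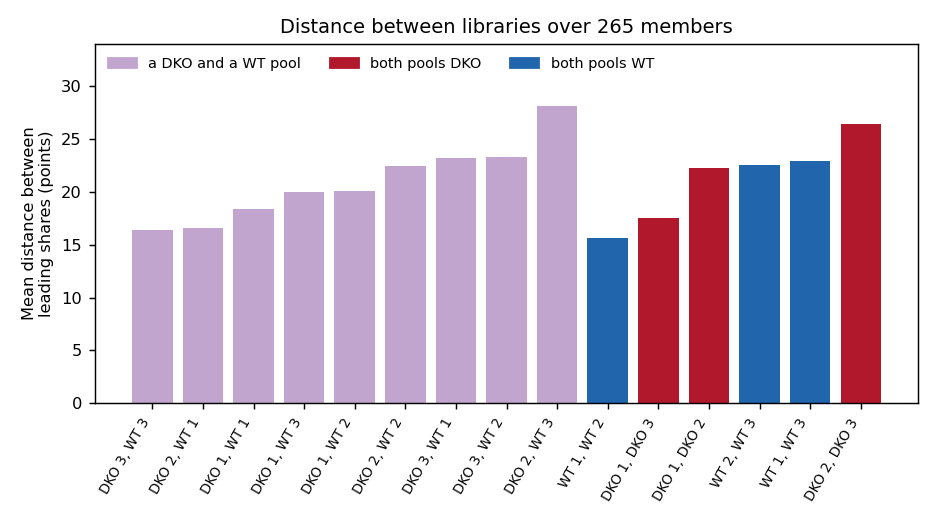
Mean absolute distance between the leading shares of 2 libraries over 265 members (vertical axis, percentage points) for each of the 15 library pairs (bars). Pairs of a DKO and a WT pool span 16.4 to 28.1 points and pairs of 1 genotype 15.7 to 26.4 points.

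Within each gene, edgeR's transcript usage test (diffSpliceDGE) asked whether its transcripts differed from each other in their DKO over WT change. It ran on 480 transcripts of 227 genes, of which 223 were members. At a Benjamini-Hochberg adjusted p below 0.05, 3 genes changed (1.32%), and all 3 were members: klhl13, mapk10 and tars1. The filter on low counts needs enough reads in 3 libraries, so a transcript near 0 in 1 genotype can pass through the other. NM_001099229 of klhl13 and NM_001318318 and NM_001318319 of mapk10 passed through WT, and NM_001037701 of mapk10 through DKO. The calls of klhl13 and mapk10 rest on transcripts kept in this way and are descriptions of the contrast. An unadjusted p below 0.05 was reached by 10 of 227 genes (4.41%, or 4.48% of the 223 members), no more than a cut of 0.05 gives without any change. They were these 3 and lrrfip2, kifc1, ndufb2, smad2, fam168a, ndufa1 and brd2a. In 9 of the 10 the leading shares did not overlap, against 21 of the 223 tested members. The test and the shares use the same counts, so this adds no support. At the level of single transcripts edgeR called 0 of 480, 12 had an unadjusted p below 0.05, limma voom called 7 and DESeq2 11. In a gene with 2 tested transcripts, limma voom and DESeq2 make the same comparison for both, so that the 7 and 11 are not separate findings. Limma voom called 3 genes (1.32%: tars1, kifc1 and lrrfip2) and DESeq2 5 (2.2%: the 3 of edgeR with lrrfip2 and kifc1), so that tars1 alone was called by all 3 tools. The DESeq2 usage test was of another form. It compared each transcript with the rest of its gene, with a term for each library. A gene's p was the smallest p of its transcripts multiplied by their number. The edgeR calls depended on single libraries. No gene was called without DKO 1, DKO 2 or WT 2, 1 gene without WT 1, 4 without DKO 3 and 5 without WT 3. Of the 3 genes, mapk10 and tars1 were called again without WT 3 only, and klhl13 in none of these fits. Combining the transcript tests of a gene by Simes' method in place of the F test ended all 3 calls, with adjusted p of 0.118 for klhl13 and 0.323 for mapk10 and tars1 (edgeR). The replicate number as a block also ended all 3 calls, with adjusted p of 0.195 for each (edgeR).

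The member mapk10 encodes a c-Jun N-terminal kinase (JNK3 in mammals), a stress-activated kinase found mostly in neurons. Its 4 rows split in opposite ways in the genotypes. Transcript NM_001037701 held 100%, 95.6% and 85.7% of the gene's counts in DKO, against 1.70%, 0.00% and 4.74% in WT, a difference of 91.6 points. The gene had 343, 341 and 491 counts in DKO and 363, 492 and 1363 counts in WT. Transcripts NM_001318318 and NM_001318319 carried identical values in every library, so that their reads could not be divided between them. Each had 0 counts in all 3 DKO pools and 178, 138 and 432 counts in WT. With 3 counts per library put in place of 0, the estimate of each was 64.7-fold lower in DKO. The quantification divides reads between transcripts by likelihood, so this is no bound on the transcript's level. The remaining row, NM_001318321, overlapped, with 0.00%, 4.38% and 14.3% of the counts in DKO and 0.00%, 43.9% and 32.0% in WT. The shares changed by edgeR's usage test (adjusted p = 0.0299), with adjusted p between 0.0295 and 0.296 when a library was left out. The usage tests of limma voom and DESeq2 gave adjusted p of 0.105 and 1.4e-10. The identical pair enters these tests as 2 transcripts. With the pair merged, a setting chosen after seeing the data, the adjusted p was 0.0487 in edgeR.

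The level of NM_001037701 was 5.76, 8.74 and 7.85 CPM in DKO, against 0.11, 0.00 and 0.96 CPM in WT, and did not overlap. Its log2 fold change was 4.36 ± 1.39 (SE), which did not pass edgeR's test over all transcripts (adjusted p = 0.47) and had an adjusted p of 0.026 in DESeq2. The summed level of the gene was 8.02 ± 1.95 CPM in DKO and 11.9 ± 7.47 CPM in WT (SD, n = 3 each). Its log2 fold change of -0.57 ± 0.48 (SE) was within the spread between pools (adjusted p = 0.79, edgeR). Neuronal markers summed to 2357 to 4531 CPM in DKO and 2562 to 3997 CPM in WT, with none of 5 markers separated. Since mapk10 was known for this pattern when the genes were chosen, its values are a description of the contrast.

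In tars1, which encodes the enzyme that loads threonine onto its tRNA, 2 well-covered transcripts moved in opposite directions. The leading transcript NM_001122786 held 38.8%, 31.0% and 38.9% of the counts in DKO, against 76.6%, 79.8% and 65.9% in WT, from 7665 to 11163 counts per library. All DKO shares were below all WT shares, with a gap of 27.0 points. The other transcript, NM_001005932, had 103, 153 and 87.3 CPM in DKO and 41.8, 42.2 and 51.3 CPM in WT (log2 fold change 1.34 ± 0.25, SE). NM_001122786 had 65.4, 68.6 and 55.7 CPM in DKO and 137, 167 and 99.2 CPM in WT (log2 fold change -1.09 ± 0.24, SE). Neither level passed edgeR's test over all transcripts (adjusted p = 0.35 for each), and limma voom called no member transcript. DESeq2 gave adjusted p of 0.00088 for NM_001005932 and 0.0095 for NM_001122786. The gene's sum was nearly the same, at 178 ± 39.7 CPM in DKO and 179 ± 29.4 CPM in WT (SD, n = 3 each). The shares changed by edgeR's usage test (adjusted p = 0.0299), with adjusted p between 0.0457 and 0.387 when a library was left out. The usage tests of limma voom and DESeq2 gave adjusted p of 0.0025 and 0.00037.

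In klhl13, a Kelch-like adaptor of the Cul3 ubiquitin ligase in mammals, a minor transcript was almost missing in the mutants. NM_001099229 had 0.00, 0.14 and 0.17 CPM in DKO, against 5.76, 15.8 and 9.42 CPM in WT, and did not overlap. The adjusted p of this level was 0.33 in edgeR and 4.7e-10 in DESeq2. The leading transcript NM_001244754 accordingly held 100%, 99.5% and 99.6% of the counts in DKO and 88.2%, 73.8% and 83.6% in WT. Its own level was 33.1 ± 9.25 CPM in DKO and 45.3 ± 2.54 CPM in WT (SD, n = 3 each). The gene's sum was lower in DKO without overlap, at 29.2, 26.6 and 43.8 CPM against 48.8, 60.5 and 57.5 CPM in WT, and did not pass edgeR's test over all genes (adjusted p = 0.43). The share change passed with all libraries (adjusted p = 0.0299, edgeR) and in none of the fits without 1 library, where adjusted p was 0.0564 to 0.387. The usage tests of limma voom and DESeq2 gave adjusted p of 0.286 and 0.00011.

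**Figure D3:**
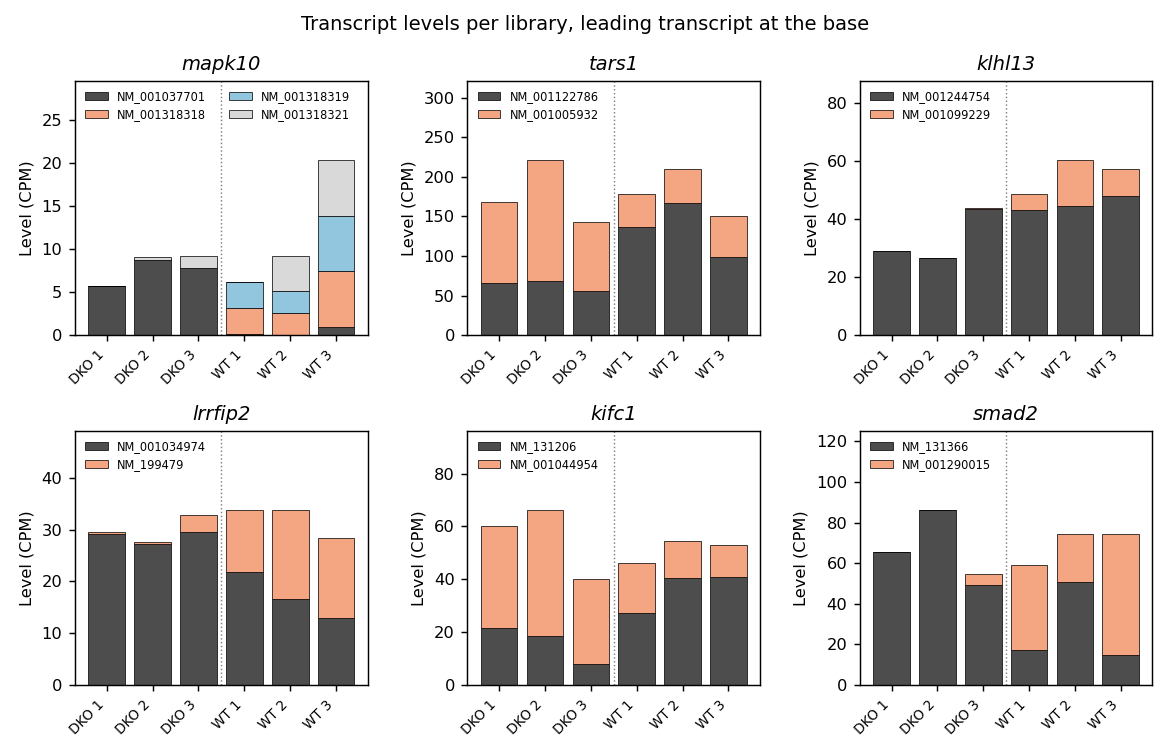
Level of each transcript (CPM, stacked bars, leading transcript at the base) in the 3 DKO libraries and the 3 WT libraries for 6 members. In mapk10 the leading transcript fills the DKO bars and is at most 0.96 CPM in WT, while in tars1 and kifc1 both transcripts are present in every library in other proportions.

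The other members with shares that did not overlap are given by the role of the gene, first those of signalling and transcription. In smad2, the transducer of Nodal, activin and TGF-beta signals, NM_131366 held 100%, 100% and 90.3% of the counts in DKO and 28.9%, 67.8% and 19.9% in WT. The second transcript, NM_001290015, had 0.00, 0.00 and 5.30 CPM in DKO against 42.1, 24.0 and 59.5 CPM in WT, while the sum of both was 68.8 ± 16.1 CPM in DKO and 69.3 ± 8.76 CPM in WT (SD, n = 3 each). The share did not pass edgeR's usage test (adjusted p = 0.49). In tle3a, which encodes a Groucho-type corepressor, NM_001313694 held 100% in all 3 DKO pools and 20.27%, 20.04% and 99.98% in WT. WT 3 was thus within 1 point of the DKO pools. The usage test did not include tle3a, because its other row had reads in too few libraries for the filter on low counts. That row, NM_131012, had 0 counts in each DKO pool and 1378, 1587 and 0.5 counts in WT. In ppp1r1b, a phosphatase inhibitor known as DARPP-32, NM_001281924 held 19.8%, 65.9% and 49.7% in DKO and 69.3%, 100% and 75.3% in WT, with a gap of 3.34 points. The difference was -36.4 points and -23.7 points without DKO 1. In pbx1a, a homeodomain cofactor of Hox proteins, NM_131614 held 75.9%, 80.0% and 82.7% in DKO and 74.1%, 66.3% and 64.9% in WT.

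Genes of the cytoskeleton and of cell division followed, with lrrfip2 given beside them. In kifc1, a minus-end directed kinesin of the spindle, NM_131206 held 36.0%, 27.9% and 20.1% of the counts in DKO, against 58.7%, 74.0% and 77.1% in WT. NM_001044954 had 38.4, 47.9 and 32.1 CPM in DKO and 19.2, 14.2 and 12.2 CPM in WT, and both transcripts were separated in opposite directions. The usage test gave an adjusted p of 0.107 in edgeR, 0.0104 in limma voom and 0.00571 in DESeq2. In lrrfip2, which binds Dishevelled in human cells, NM_001034974 held 98.6%, 98.6% and 89.9% in DKO and 64.7%, 48.9% and 45.3% in WT. Its other transcript, NM_199479, had 0.41, 0.37 and 3.31 CPM in DKO and 12.0, 17.3 and 15.5 CPM in WT. Adjusted p was 0.107 in edgeR, 0.0121 in limma voom and 0.00354 in DESeq2. In tnnt2e, a troponin T gene of striated muscle, NM_001201542 held 94.2%, 98.7% and 82.6% in DKO and 57.2%, 67.8% and 53.7% in WT (adjusted p = 0.999, edgeR). Muscle markers summed to 6065 to 13360 CPM in DKO and 6440 to 14031 CPM in WT, with none of 5 separated.

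All 3 members that encode proteins of mitochondrial complex I, the first enzyme of the respiratory chain, had shares without overlap, against 8.3% of all members. This group was put together after the values were seen. In ndufb2, NM_200791 held 98.6%, 100% and 97.4% of the counts in DKO and 86.2%, 55.8% and 82.5% in WT. The second transcript, NM_001167826, had 1.48, 0.00 and 2.26 CPM in DKO and 13.7, 52.3 and 17.3 CPM in WT. The difference in share was 23.9 points and 14.3 points without WT 2. In ndufa1, NM_001167855 held 83.3%, 70.6% and 65.7% in DKO and 57.7%, 47.1% and 59.6% in WT. In ndufab1b, the acyl carrier protein, NM_001305570 held 57.8%, 50.5% and 50.7% in DKO and 60.7%, 65.3% and 62.0% in WT. The leading share was thus higher in DKO in 2 of these genes and lower in 1, and none passed edgeR's usage test after adjustment. None of the 3 had a summed level at an unadjusted p below 0.05.

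In fam168a, NM_001045470 held 99.9%, 99.5% and 100% in DKO and 90.4%, 0.01% and 77.4% in WT, and the size of the difference rested on WT 2 (43.9 points with it and 15.9 without). In zgc:153284 the same pool had 0.00% of the leading transcript, against 71.2% and 88.8% in the other WT pools and 91.7%, 95.2% and 100% in DKO. The difference was 42.3 points with WT 2 and 15.7 without it. The remaining members without overlap were postnb, ndrg1a, rpgrb, smim8, luzp2, gtf2f2a and cirbpb, with differences of 4.98 to 17.9 points in size and gaps of 0.55 to 4.56 points. Of these, postnb encodes periostin, a matrix protein, and rpgrb a protein of the photoreceptor connecting cilium in mammals. In rpgrb the leading share was 71.2%, 71.8% and 65.2% in DKO and 76.4%, 82.4% and 86.5% in WT, in libraries whose photoreceptor markers did not overlap either, and the part of those cells in this share was not tested.

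**Figure D4:**
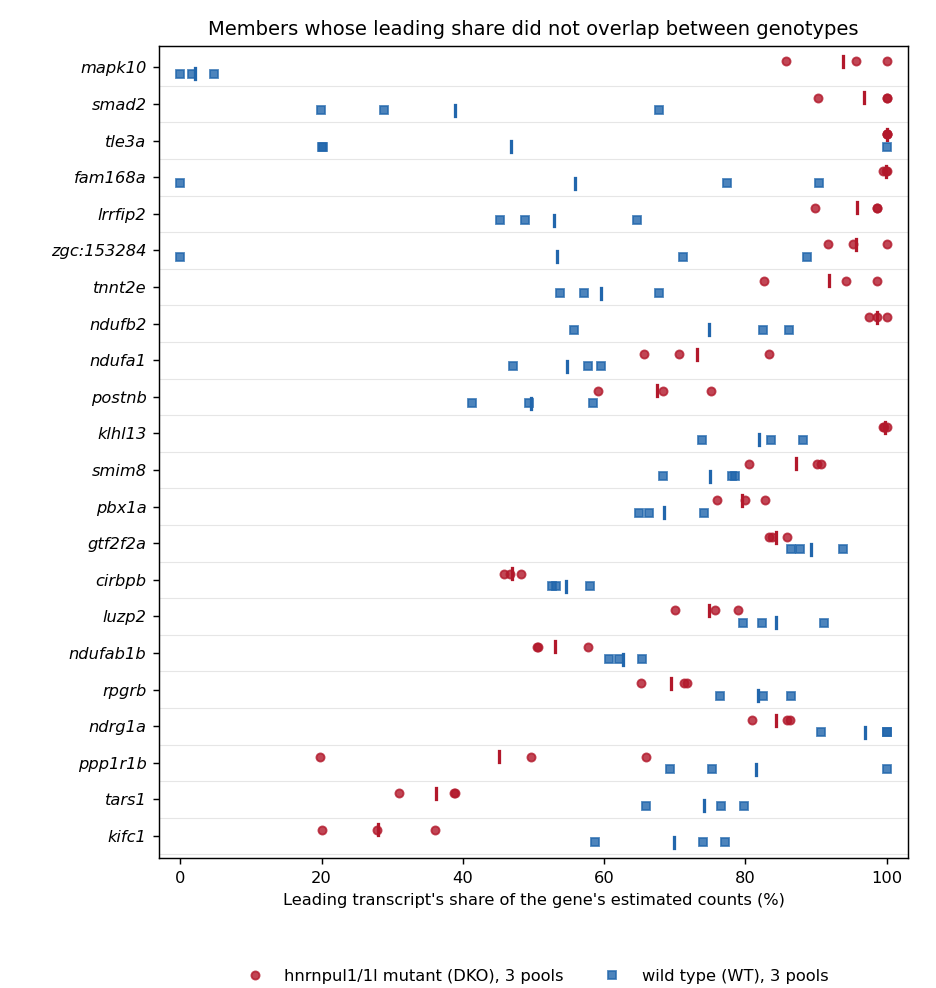
Leading transcript's share of the gene's estimated counts (horizontal axis, %) for the 22 members whose shares did not overlap, with DKO pools as circles above WT pools as squares and means as vertical ticks, ordered by the DKO minus WT difference. The rows run from mapk10 at 91.6 points to kifc1 at -41.9 points, and several WT rows spread over more than 50 points.

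The transcript with the largest mean share differed between DKO and WT in 38 members (14.3%). Of the 10 largest such switches, mapk10, smad2, tle3a and kifc1 were described above. The other 6 (ccdc85a, si:busm1-105l16.2, mzt2b, tmem269, dzip1 and mgmt) overlapped between the genotypes. In si:busm1-105l16.2 the leading share was 100% in all 3 DKO pools and in WT 1, and 0% in WT 2 and WT 3, from 18.4 to 278 counts per library. In mgmt, which encodes a DNA repair methyltransferase, it was 100%, 0% and 77.3% in DKO and 0%, 0% and 48.0% in WT. In dzip1, a cilium and Hedgehog pathway gene first known in zebrafish, it was 55.7%, 100% and 100% in DKO and 61.6%, 0.02% and 59.5% in WT. The difference in mgmt was 43.1 points, 22.7 points without DKO 1 and 72.7 without DKO 2, and that in dzip1 was 44.9 points and 24.7 without WT 2. None of these 6 switches separated the pools by genotype.

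The 5 most abundant members differed in how steady their split was. Of rps24 and rps12, which encode proteins of the small ribosomal subunit, the leading transcript held 99.98% and 98.8% of the counts on average in both genotypes. In the skeletal myosin gene myhz1.1 it held 97.4 ± 1.82% in DKO and 95.7 ± 3.79% in WT, and in ybx1, a cold-shock domain protein that binds mRNA, 59.2 ± 12.4% in DKO and 49.6 ± 6.82% in WT (SD, n = 3 each). The shares of these 4 overlapped, and in ybx1 the difference of 9.57 points was 2.46 points without DKO 2. Those of cirbpb, the cold-inducible RNA-binding protein, did not overlap. This gene had 6 rows and 128630 to 194884 counts per library. Its non-coding row NR_132113 held 45.9%, 48.3% and 46.7% in DKO, against 53.2%, 52.6% and 58.1% in WT. The coding row NM_001040321 held 48.5%, 48.6% and 47.0% in DKO and 41.9%, 43.1% and 37.2% in WT. Both shares were separated between genotypes, by 7.66 points on average for the non-coding row, and edgeR's usage test gave an adjusted p of 0.999.

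A list of RNA binding and splicing genes, drawn up by the start of the gene symbol, took in 9 members with shares and left out other RNA-binding members such as cirbpb and ybx1, described above. None of the 9 was without overlap (srsf3b, srsf2b, srsf9, elavl1b, elavl4, mbnl1, mbnl2, ddx5 and pabpn1), against 8.3% over all 265 members. Their median difference was 5.18 points, against 6.92 points over all 265. None exceeded 20 points. In elavl1b, a HuR-type protein with 7 rows, the leading share was 62.5%, 91.6% and 7.2% in DKO and 84.7%, 87.5% and 41.8% in WT, with the pools numbered 3 lowest in both genotypes. In srsf3b, an SR protein, it was 73.5%, 97.5% and 41.8% in DKO and 86.5%, 94.5% and 69.2% in WT. In the RNA helicase gene ddx5 it was 79.9%, 63.3% and 84.0% in DKO and 91.8%, 88.7% and 78.5% in WT. By contrast mbnl1 stayed between 99.3% and 99.9% and elavl4, a neuronal Hu protein, between 89.6% and 97.6% in all 6 libraries.

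**Figure D5:**
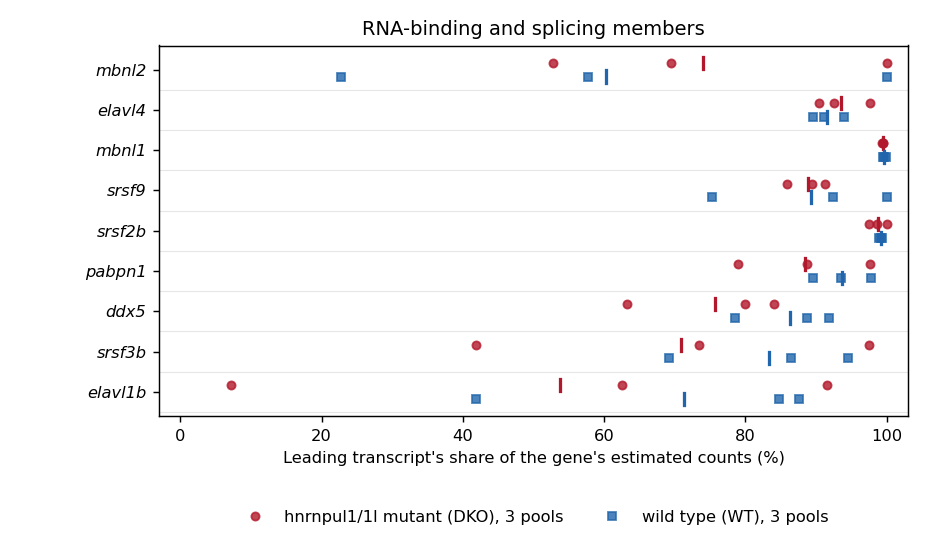
Leading transcript's share of the gene's estimated counts (horizontal axis, %) in 9 RNA-binding and splicing members, with DKO pools as circles above WT pools as squares and means as vertical ticks. The genotypes overlap in all 9 rows, from 7.2% to 91.6% in elavl1b within DKO to 99.3% to 99.9% in mbnl1.

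The other gene lists had 4 to 13 members each, and their counts stand against 8.3% of members without overlap and a median difference of 6.92 points over all. Of 13 kinase and phosphatase genes, 2 did not overlap (mapk10 higher, ppp1r1b lower), with a median difference of 10.6 points. Of 9 transcription factor and chromatin genes, 2 did not overlap (smad2 and pbx1a, both higher), with a median of 5.02 points. Of 11 muscle and cytoskeleton genes, tnnt2e did not overlap, with a median of 4.53 points. This list took sptssb, an enzyme subunit of sphingolipid synthesis, by the start of its symbol. None of 4 synapse and channel genes was separated, with a median of 8.05 points. None of the 4 members on a list for matrix, ligand and receptor genes was separated, with a median of 8.66 points. These 4 were bmpr1bb, fgfr1a, fgfr2 and bmp2k, which are kinase genes, and the matrix gene postnb was not on the list. In the fgfr1a receptor gene the leading share was 100%, 0% and 59.3% in DKO and 100% in all 3 WT pools, from as few as 26 counts in DKO 2.

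The study's table of splicing events was used here only in part, up to some of its retained introns and with some of its genes left out. Of the genes taken from it, 3 were members. Besides ndufb2, ap2m1a encodes the mu subunit of the clathrin adaptor AP-2. Its NM_212577 held 75.0%, 100% and 49.7% in DKO and 36.0%, 33.0% and 51.4% in WT, so that DKO 3 and WT 3 overlapped, and the difference was 34.8 points and 22.2 points without DKO 2. The other row, NM_001291355, had 70.0, 0.00 and 137 CPM in DKO and 225, 270 and 189 CPM in WT. The gene's sum was lower in DKO without overlap, at 267 ± 15.1 CPM against 381 ± 26.8 CPM in WT (SD, n = 3 each), with an adjusted p of 0.47 over all genes in edgeR. In bsg, which encodes the membrane glycoprotein basigin, the leading transcript held 98.9 ± 1.30% in DKO and 97.8 ± 1.49% in WT (SD, n = 3 each). In mutants, the study reports less use of an exon in bsg and in ap2m1a and less retention of an intron in ndufb2. A RefSeq row sums reads over a whole transcript, and single exons or introns were not measured in these tables. The shares given here are therefore not measures of those events.

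Member transcripts were not separated more often than other transcripts. Of 518 member transcripts that passed edgeR's filter on low counts, 0 were called at an adjusted p below 0.05, as were 0 of all 13553 tested. At an unadjusted p below 0.05 there were 39 member transcripts (7.53%), against 8.79% of all transcripts. Of these, 18 were higher in DKO (3.47%, against 4.18% of all) and 21 lower (4.05%, against 4.61%). Levels did not overlap in 59 member transcripts (11.4%), against 16.8% of all. DESeq2 called 21 of 521 member transcripts (4.03%), against 1.39% of all it tested, and limma voom called 0. Of the 21, 15 had passed edgeR's filter, came from 11 genes and did not overlap between genotypes. In 6 of the 31 members with a transcript at an unadjusted p below 0.05, 1 transcript was higher and another lower: kifc1, lrrfip2, mapk10, ndufa1, smad2 and tars1.

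The summed level of a gene over its rows differed about as often in members as elsewhere. EdgeR called 0 of 269 members, as it did 0 of all 13300 genes tested. Limma voom called 0 members and DESeq2 6 (2.23%, against 1.53% of all genes). At an unadjusted p below 0.05 there were 29 members (10.8%, against 9.29% of 13300 genes), with 12 higher in DKO (4.46%, against 4.44%) and 17 lower (6.32%, against 4.85%). The summed levels did not overlap in 48 members (17.8%, against 17.1%). The genes called by DESeq2 were ndrg1a, ctbp2a, trpm1a, rpl22l1, rps24 and psma6a. The stress-response gene ndrg1a had 104, 89.0 and 123 CPM in DKO and 241, 232 and 250 CPM in WT (log2 fold change -1.20 ± 0.20, SE, adjusted p = 0.25 in edgeR). Also lower in DKO were ctbp2a, a gene of synaptic ribbons and transcriptional repression, with 84.2, 111 and 117 CPM against 186, 238 and 217 CPM in WT, and trpm1a, an ion channel of ON bipolar cells and melanocytes, with 5.26, 3.03 and 8.73 CPM against 18.3, 16.6 and 16.8 CPM in WT. Photoreceptor markers were lower in the same pools, and their part in these levels was not tested.

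Cytosolic ribosomal protein genes among the members were higher in DKO in 5 of 5 (rpl17, rpl22l1, rpl29, rps12 and rps24), against 134 of all 269 members. Their median log2 fold change was 0.79, against -0.01 over all 269 members. All 5 were also higher with RLE size factors and with library totals only, which put the median over all genes at -0.135 on the log2 scale, against -0.012 with TMM. This group was chosen after the values were seen. Of the 5, rpl17, rpl22l1 and rps24 did not overlap and had an unadjusted p below 0.05 in edgeR. Over all genes, 17.1% did not overlap and 9.29% had such a p. In rps24 the summed level was 4160, 4400 and 3652 CPM in DKO and 2747, 2266 and 1956 CPM in WT, while its leading share was 99.98% on average in both genotypes. In rpl22l1, a paralog of a large subunit protein, the sum was 1191, 1056 and 1034 CPM in DKO and 663, 578 and 516 CPM in WT (adjusted p = 0.30, edgeR). Of the 22 members whose shares did not overlap, 3 also had summed levels that did not overlap, against 17.8% of all members.

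Members were also split by the kind and the number of their rows. Shares did not overlap in 1 of 15 members with a non-coding (NR) row and in 21 of 250 with coding (NM) rows only, with median differences of 7.66 and 6.91 points. They did not overlap in 3 of 40 members with 3 or more rows and 19 of 225 with 2 rows, with median differences of 7.83 and 6.49 points. In oprl1 and mdh1aa, as in mapk10, a pair of rows carried identical counts in every library. The split of that pair was therefore fixed by the quantification, at 50% in oprl1 in every library. In 5 members (chico, adat3, il15l, micall2b and wdr47b) every count was within 0.005 of a whole number and every share was 0% or 100%.

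By the gene order of the GRCz12tu assembly, 19 of the 265 members lie on the chromosomes of the mutated genes. Of these, 5 had leading shares without overlap, against 17 of the 246 members on other chromosomes, and this comparison was made after the values were seen. On the chromosome of hnrnpul1l were tars1, with 245 protein-coding genes between it and hnrnpul1l, and klhl13, with 423 between. On the chromosome of hnrnpul1 were luzp2, tle3a and fam168a, with 29, 242 and 517 genes between. Of 8 members on the hnrnpul1 chromosome 3 did not overlap, with a median difference of 27.8 points, and of 11 on the hnrnpul1l chromosome 2 did not, with a median of 1.75 points. The median over members on other chromosomes was 7.04 points. The embryos were sorted by genotype at these loci, so that linked alleles and the loss of the genes cannot be told apart here. By the study's Results, the mutants had hnrnpul1l mutant mothers and the controls came from hnrnpul1l heterozygotes. The groups then had different parents. Alleles on the other chromosomes may therefore also differ between them, and cannot be told apart from the loss of the genes either. The nearest members, luzp2 and, on the other chromosome, pou2f3 with 44 genes between, differed by 9.45 and 0.71 points in size.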

How the data were processed

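Each library's table holds estimated counts per RefSeq transcript (kallisto 0.42.4 and danRer10 in the submitters' processing notes), which the authors deposited without scaling for depth or length. Whether the labelled whole embryos or the trunk and head named in the methods is meant, the tail was removed. A RefSeq table of GRCz12tu paired 14740 of 15455 rows with genes and was used for names and gene order only. The design assumed whole counts. Between 15.5% and 18.0% of values per library were not whole, and all were rounded for tests and left unrounded for shares. The whole table was fitted in R 4.3.3 with edgeR 4.0.16 (filterByExpr, TMM, glmQLFit, glmQLFTest, diffSpliceDGE), with limma 3.58.1 and DESeq2 1.42.0 as alternatives. Standard errors of log2 fold changes are their size over the square root of F. P-values were adjusted over all features tested. Alternatives were size factors, filters, a replicate block, each library left out and other minimum sums. The scripts were tested on simulated data. Reads that fit several transcripts are divided by likelihood, so no binomial interval was given, and near-identical gene copies are uncertain.

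Members, gene lists and tests were chosen with earlier results of these data known. Named were mapk10, genes called by the usage test, the 10 largest differences without overlap at a mean of 2 CPM or more, the 10 largest switches, the 5 most abundant members, members in the part of the study's splicing table used here and list members without overlap. Other genes named were picked with their values in view. Nothing in the labels says that the pools came from separate clutches, so p-values measure the spread between these pools.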

Additional observations from a re-analysis of the deposited data

How the results depend on the processing

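The count of 3 genes with changed transcript shares (edgeR) was 3 with RLE size factors, with library totals only, without a filter on low counts, in limma voom and with identical rows merged (added after seeing the data), and 2 at a mean CPM of at least 5. It was 0 with Simes combination, 5 in DESeq2 and 10 at an unadjusted p below 0.05, and 0 to 5 with 1 library left out. With the replicate number as a block it was 0 (adjusted p = 0.195 for klhl13, mapk10 and tars1, edgeR), and the block changed no other count. Deviations of same-numbered pools correlated at -0.09, 0.13 and 0.38 for pools 1, 2 and 3. Of these same-numbered pairs, only the pools numbered 3 each correlated best with the other. Whether the numbers pair samples was not settled. Single transcripts with changed shares numbered 0, against 12 at an unadjusted p, 7 in limma voom, 11 in DESeq2 and 0 to 3 with 1 library left out. Member transcripts and member gene totals that differed stayed at 0 in every edgeR setting and in limma voom, against 39 and 29 at an unadjusted p and 21 and 6 in DESeq2. The main edgeR fit also called 0 of all 13553 transcripts and 0 of all 13300 genes. The rule gave 286, 203 and 173 members at a minimum of 20, 500 and 1000 counts in place of 100. Of the 22 members without overlap, 18 had a gap of at least 1 point. Of the same 22, 19 had 10000 or more counts, as had 160 of all 265 members. Both settings were added after seeing the data. Share differences of some named genes moved by over 1.5 times on leaving out 1 library. Without WT 2 the difference was 15.9 points in fam168a (43.9 with all libraries), 15.7 in zgc:153284 (42.3), 24.7 in dzip1 (44.9), 14.3 in ndufb2 (23.9) and 77.3 in tmem269 (51.5), which was 27.3 without WT 3. Without DKO 2 it was 22.2 in ap2m1a (34.8), 2.46 in ybx1 (9.57) and 72.7 in mgmt (43.1), which was 22.7 without DKO 1. Without DKO 1 it was -23.7 in ppp1r1b (-36.4). Such moves also occurred in bsg, myhz1.1, rps12 and rps24, whose differences were under 2 points, and those of rps12 and rps24 changed sign. With counts pooled over libraries it was 29.2 points in tmem269 and 26.5 in zgc:153284. Counting error and pool-to-pool spread were not separated.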
